A study of Mus musculus with 8 samples.

Results

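Six-family genes encode homeodomain transcription factors, the Eya genes encode their coactivators, and Dach1 encodes a corepressor of the same network. All array spots other than controls whose gene name in the files was Six2, Six4, Six5, Eya1, Eya2, Eya3, Eya4 or Dach1 were taken, which gave 15 probes for the 8 genes among 41174 probes with 27827 gene names. RNA of the posterior second heart field (pSHF), the mesoderm dorsal to the heart that contributes to the atrial septum, was measured in mouse embryos at E9.5 to find transcripts that depend on Tbx5 dosage. One group was heterozygous for a Tbx5 mutation (Tbx5-/+) and the other was wild-type, with 4 independent pools of RNA in each. The labels number embryos, 1, 5, 6 and 7 in both groups, where the description of the series speaks of pools. Each sample is called a pool here. Array slide 1 held numbers 1 and 5 while slide 2 held numbers 6 and 7. The Tbx5-/+ mice were kept on a mixed background, the dams were given gonadotropins to enlarge the litters, and the number of embryos in a pool is not given in the sources used here. The mutant allele was carried in the germ line with no tissue-restricted driver, so the tissues around the pSHF were heterozygous as well.

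SIX-family proteins bind DNA through a homeodomain and an adjoining conserved domain of the family, and the classic SIX-binding site in muscle promoters is called MEF3. EYA proteins do not bind DNA themselves. They carry a conserved Eya domain that binds SIX-family proteins and has tyrosine phosphatase activity, while DACH proteins bind chromatin and recruit corepressors to the same targets. The network is known for the eye, ear, kidney, cranial placodes, somite muscle and pharyngeal arches, and Six2 and Eya1 are also known from the pharyngeal mesoderm that feeds the heart.

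All 8 genes had at least 1 probe that was measured. A probe was tested when its signal was well above the local background, as marked by the scanner software, on all 4 arrays of at least 1 group, and 10 of the 15 probes met this. Values are log2 signals after variance stabilization (VSN), and a difference is Tbx5-/+ minus wild-type. Of the 15 probes, 6 were well above background on all 8 arrays and 2 on 0. In the Tbx5-/+ pools 36 of 60 member spots were well above background, against 46 of 60 in wild-type. Over the whole arrays the share was 45.0% to 52.8% in Tbx5-/+ and 50.9% to 63.6% in wild-type, and the Tbx5-/+ array was the lower one in 4 of the 4 same-numbered pairs.

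None of the 10 probes tested differed between the genotypes beyond the spread between pools in the main fit, which was unpaired. With limma, 0 passed an adjusted p of 0.05, 0 passed an unadjusted p of 0.05, and on 0 of the 10 were the groups free of overlap. Over all 20028 probes tested, 0% passed the adjusted threshold, 21.9% passed the unadjusted one (18.5% lower and 3.38% higher) and 9.72% did not overlap between groups. The adjusted p of the members ran from 0.261 to 0.963 by limma. Their differences ran from -0.63 (Six5) to 0.52 (Dach1), 5 lower and 5 higher, with a median of -0.10 against -0.19 over all probes, of which 65.4% were lower. The median standard error was 0.323 for the members and 0.258 for all probes tested, and a p above the threshold does not show equal expression. The p-values measure the spread between these pools.

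**Figure D1:**
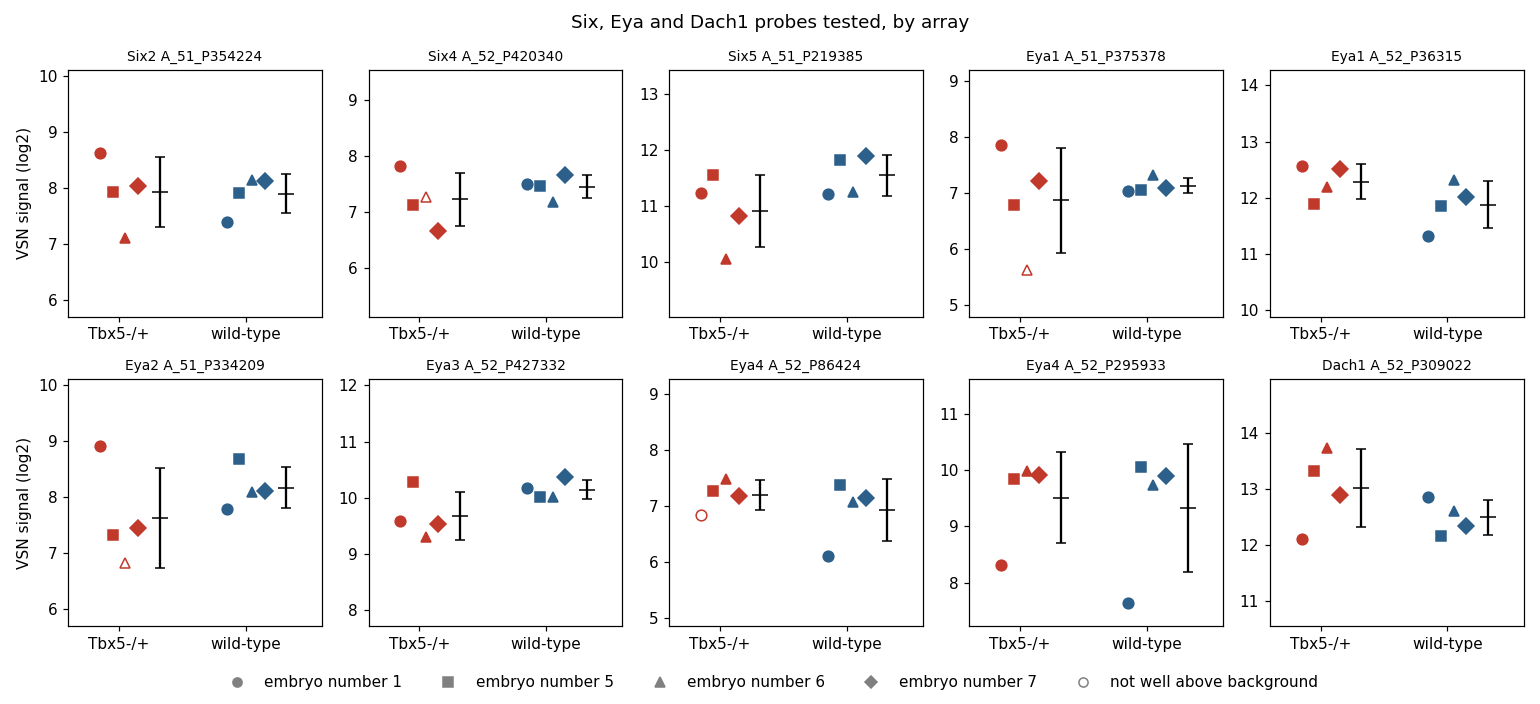
VSN signal (log2, vertical axes of equal length) of the 10 Six-family, Eya and Dach1 probes tested, one panel a probe, with Tbx5-/+ pools in red and wild-type pools in blue, a symbol for each embryo number, open symbols where the spot was not well above background, and the mean with SD (n = 4) at the right of each group. The groups overlap in every panel, and the 2 lowest Eya4 values of probe A_52_P295933 (8.31 and 7.64) are embryo number 1 of each genotype.

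Six2, which keeps kidney progenitors from differentiating, was measured by 1 probe (A_51_P354224, mm9 chr17:86083986-86084045, minus strand). Its signal in Tbx5-/+ numbers 1, 5, 6 and 7 was 8.62, 7.94, 7.11 and 8.04, and in the wild-type pools of the same numbers 7.40, 7.92, 8.14 and 8.14. Both the highest and the lowest pool were Tbx5-/+, so the wild-type values lay inside the range of the mutant ones. The difference was 0.03 (SE 0.318, limma adjusted p = 0.963, 95% interval -0.68 to 0.74). Within slide 1 it was 0.62 and within slide 2 it was -0.56, opposite in direction.

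Six4, a family member that acts in muscle precursors, was read by probe A_52_P420340 (mm9 chr12:74201609-74201668, minus strand). The Tbx5-/+ signals were 7.83, 7.12, 7.28 and 6.67 and the wild-type signals 7.50, 7.47, 7.17 and 7.66, again in the order of numbers 1, 5, 6 and 7. The spot of Tbx5-/+ number 6 was not well above background. The difference of -0.23 (SE 0.256, limma adjusted p = 0.595) became 0.094 when each array was centred on its median, and was -0.01 within slide 1 and -0.44 within slide 2.

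Six5, the family member next to the myotonic dystrophy kinase gene, had the lowest difference of the 8 genes. Probe A_51_P219385 (mm9 chr7:19683437-19683496, plus strand) read 11.22, 11.55, 10.06 and 10.81 in Tbx5-/+ and 11.21, 11.82, 11.26 and 11.89 in wild-type. The 2 pools of slide 2 were the lowest mutant values and lay under all wild-type values, whereas those of slide 1 did not. The difference was -0.63 (SE 0.327, 1.55-fold lower, limma adjusted p = 0.267, 95% interval -1.36 to 0.10), with -0.13 within slide 1 and -1.13 within slide 2.

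Eya1, the family member mutated in branchio-oto-renal syndrome, had 2 probes that were both tested. The 3′ probe (A_52_P36315, mm9 chr1:14159153-14159212, minus strand) read 12.56, 11.90, 12.20 and 12.50 in Tbx5-/+ and 11.32, 11.85, 12.31 and 12.02 in wild-type, a difference of 0.41 (SE 0.254, limma adjusted p = 0.332). The probe 1.6 kb upstream of it (A_51_P375378, mm9 chr1:14160732-14160791, minus strand) read 7.86, 6.78, 5.63 and 7.22 in Tbx5-/+ and 7.04, 7.06, 7.33 and 7.10 in wild-type, a difference of -0.26 (SE 0.403, limma adjusted p = 0.705). On this probe the wild-type pools lay close together (SD 0.134, n = 4) while the mutant pools ran both above and below them (SD 0.942, n = 4), and number 6, the lowest, was not well above background. The sign of the upstream probe turned to 0.062 when arrays were centred on their medians.

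The change of the 3′ Eya1 probe exceeded that of the upstream probe by 0.67. Exact permutation of the genotypes over the 8 arrays (70 ways, two-sided, with the numbers not used as pairs) gave p = 0.143, where 0.0286 is the smallest p possible. Without Tbx5-/+ number 1 the gap was 0.91 and the exact permutation p = 0.0286, again the smallest p possible. Without Tbx5-/+ number 6 the gap was 0.29 and the exact permutation p = 0.314. Without any other single pool the exact permutation p was 0.171 to 0.343. The corresponding gap between 2 Eya4 probes was -0.09 with an exact permutation p = 0.571. These 2 pairs were the only ones with both probes tested, and adjusted over them the exact permutation p was 0.286 for Eya1 and 0.571 for Eya4. Within slides the 3′ Eya1 probe differed by 0.64 and 0.19 (slides 1 and 2) and the upstream one by 0.27 and -0.79. Between same-numbered pools (1, 5, 6 and 7) the 3′ probe differed by 1.23, 0.05, -0.12 and 0.49. The upstream one differed by 0.83, -0.28, -1.70 and 0.12, the lower value for every number.

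Eya2, a coactivator of SIX-family proteins in muscle precursors and placodes, was represented by a single probe. This 60-base oligo, printed because its call depended on 1 array, is the strand of the transcript at mm9 chr2:165594761-165594820 (plus strand):
Eya2 A_51_P334209: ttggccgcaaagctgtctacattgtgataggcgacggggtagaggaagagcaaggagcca
Its signal was 8.90, 7.32, 6.82 and 7.45 in Tbx5-/+ and 7.79, 8.68, 8.10 and 8.11 in wild-type. Numbers 5, 6 and 7 of Tbx5-/+ lay under every wild-type pool, and number 1 lay above all of them; the spot of number 6 was not well above background. The difference over all 8 arrays was -0.54 (SE 0.409, limma adjusted p = 0.422, 95% interval -1.46 to 0.37). Without Tbx5-/+ number 1 it was -0.97 (limma adjusted p = 0.0358), a threshold that 19.2% of all probes then passed. Without Tbx5-/+ number 6 it was -0.27 (limma adjusted p = 0.782). The values within slides were -0.12 and -0.97.

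Eya3, a family member expressed in many tissues, was read by its most 3′ probe (A_52_P427332, mm9 chr4:132280297-132280356, plus strand) on all 8 arrays. The Tbx5-/+ pools gave 9.59, 10.29, 9.30 and 9.53, and the wild-type pools gave 10.18, 10.02, 10.01 and 10.36. In Tbx5-/+, 3 pools (numbers 1, 6 and 7) were lower than every wild-type pool and number 5 was within the wild-type range. This probe had the smallest p of the members: the difference was -0.47 (SE 0.237, 1.38-fold lower, limma unadjusted p = 0.0770, adjusted p = 0.261, 95% interval -0.997 to 0.061). It was -0.16 within slide 1 and -0.77 within slide 2.

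Eya4, known for hearing loss with dilated cardiomyopathy in people, had 2 probes tested of 3. The most 3′ one (A_52_P295933, mm9 chr10:22822975-22823034, minus strand), which the files tie to Eya4 through a cDNA clone, read 8.31, 9.84, 9.99 and 9.91 in Tbx5-/+ and 7.64, 10.05, 9.73 and 9.90 in wild-type. Number 1 was the lowest pool in both genotypes, with -1.61 in Tbx5-/+ and -2.25 in wild-type from the mean of the other 3, and the remaining 6 values lay within 9.73 to 10.05. A probe 1.1 kb upstream (A_52_P86424, mm9 chr10:22824091-22824150, minus strand) read 6.84, 7.27, 7.48 and 7.18 in Tbx5-/+ and 6.12, 7.37, 7.07 and 7.14 in wild-type. On it number 1 was again the lowest of each group, with -0.47 and -1.07, and its Tbx5-/+ spot was not well above background.

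Between genotypes the Eya4 probes differed by 0.18 (SE 0.565, limma adjusted p = 0.859) and 0.27 (SE 0.286, limma adjusted p = 0.572). The 3′ probe had the widest spread of the members over the 8 arrays, with an SD of 0.916 against a median of 0.417 for all probes tested. Of the 20028 probes tested, 562 (2.81%) lay more than 1 below the other 3 pools in number 1 of both genotypes and 223 (1.11%) more than 1 above, and 51 were at least as low in both as the 3′ Eya4 probe, itself included. Number 5, on the same slide as number 1, read 9.84 in Tbx5-/+ and 10.05 in wild-type on the 3′ Eya4 probe. The part of the slide in the Eya4 values was not tested. Among markers of other tissues, the summed signal of the 3 somite markers tested was 13.12 in Tbx5-/+ number 1, above the lowest of its group (12.24), and 12.04 in wild-type number 1, the lowest of its group (highest 14.06). The foregut endoderm sum (6 of 6 markers tested) was the highest of its group in number 1 of both genotypes, at 15.88 in Tbx5-/+ (the others 15.24 to 15.41) and 16.64 in wild-type (the others 15.32 to 15.73). The part of these tissues in the Eya4 values was not tested.

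Dach1, the corepressor, had the highest difference. Its 3′ probe (A_52_P309022, mm9 chr14:98186160-98186219, minus strand) read 12.11, 13.32, 13.73 and 12.90 in Tbx5-/+ and 12.86, 12.16, 12.60 and 12.35 in wild-type. Tbx5-/+ numbers 5, 6 and 7 were above every wild-type pool, and number 1 was the lowest of all 8 arrays. The difference was 0.52 (SE 0.334, 1.44-fold higher, limma adjusted p = 0.348, 95% interval -0.22 to 1.27), and without Tbx5-/+ number 1 it was 0.82 (limma adjusted p = 0.0510). Without Tbx5-/+ number 6 it was 0.29 (limma adjusted p = 0.697), the lowest value without 1 pool. The values within slides were 0.21 and 0.84.

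**Figure D2:**
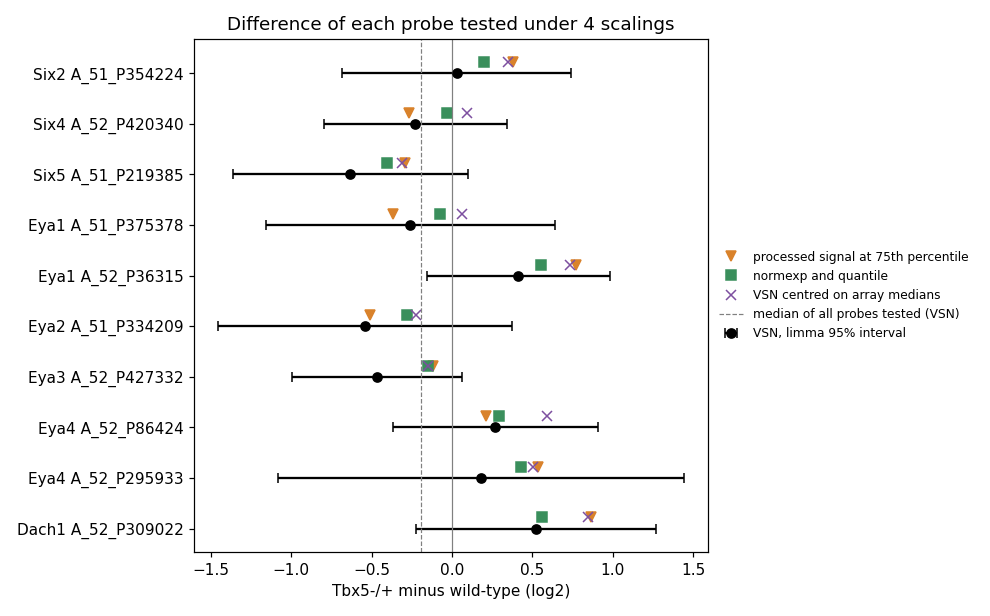
Difference between Tbx5-/+ and wild-type (log2, horizontal axis) of each Six-family, Eya and Dach1 probe tested, as black points with 95% intervals from limma on VSN values and as coloured symbols under other scalings, with the median of all probes tested (-0.19) dashed. Every interval spans 0, from the lowest difference (-0.63, Six5) to the highest (0.52, Dach1).

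The scaling of the arrays moved the median of all probes tested from -0.19 with VSN to 0.10 with processed signals scaled to their 75th percentile, -0.02 with quantile normalization and 0.13 with VSN values centred on array medians. Under these 4 scalings Six2, the 3′ Eya1 probe, both Eya4 probes and Dach1 kept a value above 0, and Six5, Eya2 and Eya3 kept one below 0. With the 75th percentile, quantile and centred scalings, Eya3 moved from -0.47 to -0.12, -0.15 and -0.15. In that order Six5 moved from -0.63 to -0.29, -0.40 and -0.31, and Eya2 from -0.54 to -0.51, -0.28 and -0.22. Dach1 moved from 0.52 to 0.87, 0.56 and 0.84. Six4 and the upstream Eya1 probe turned to a value above 0 with centring. Measured from the VSN median, Dach1 stood 0.71 above it and Six5 0.44 below it.

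The 5 probes that were not tested belong to Eya3, Eya4 and Dach1, and all lie 5′ of the tested probe of their gene. Of these, 3 span an intron on mm9, since their 60 bases map to 2.70 kb, 2.29 kb and 8.71 kb of genome, and they are printed because they were rarely detected where the 3′ probe of the same gene was measured on all 8 arrays:
Eya3 A_52_P331237: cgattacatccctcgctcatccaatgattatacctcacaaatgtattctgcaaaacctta
Eya4 A_52_P608186: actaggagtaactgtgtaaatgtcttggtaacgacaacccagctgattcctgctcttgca
Dach1 A_51_P356552: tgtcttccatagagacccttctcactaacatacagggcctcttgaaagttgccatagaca
The Eya3 probe (mm9 chr4:132226117-132228816, plus strand) was well above background in wild-type number 7 alone. The Eya4 probe (mm9 chr10:22831433-22833720, minus strand) was so in wild-type numbers 5 and 7. The Dach1 probe (mm9 chr14:98230636-98239342, minus strand) was so on 0 of 8 arrays, 44.5 kb from the 3′ probe.

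The 2 other untested probes were both of Eya3. A_52_P1116481 (mm9 chr4:132235123-132235182, plus strand), 45.2 kb upstream of the 3′ probe, was well above background in wild-type numbers 5, 6 and 7 and in 0 of 4 Tbx5-/+ pools. Its measured means were 6.75 in wild-type and 6.44 in Tbx5-/+. Tbx5-/+ number 6 read 7.11 and was not well above background, while wild-type number 7 read 7.08 and was. Wild-type number 1 read 5.74 and was not. No bound on the difference was therefore drawn, and it was not tested. A_51_P459650 (mm9 chr4:132278303-132278362, plus strand), only 2.0 kb upstream, was well above background on 0 arrays.

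In each of the 4 genes with several probes, the most 3′ probe was well above background on 8 arrays and the most 5′ probe on fewer, 7 for Eya1, 1 for Eya3, 2 for Eya4 and 0 for Dach1. Over the 8421 genes of the array with several probes, 35.3% had that pattern, and in 46.6% the 3′ probe was well above background on more arrays than the 5′ one. The level of one probe cannot be set against that of another, so the differing detection does not give relative amounts of transcript forms.

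**Figure D3:**
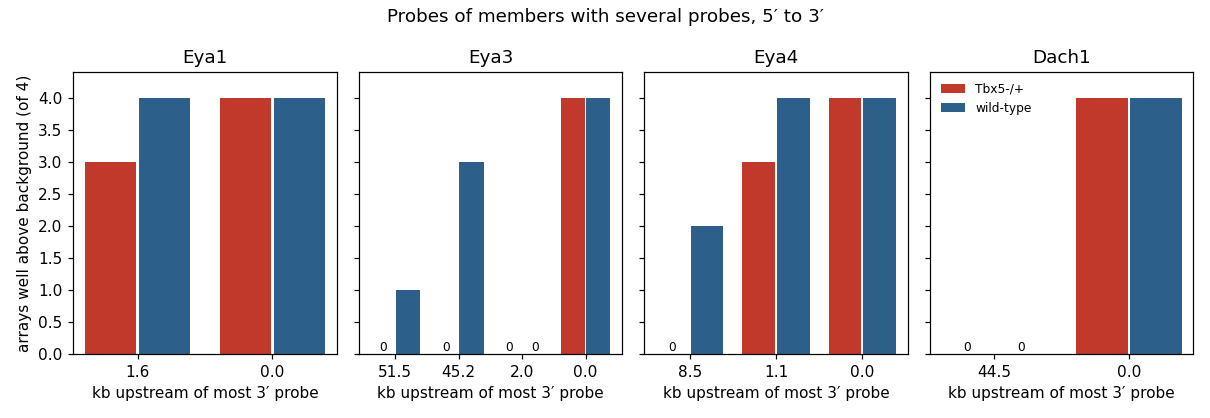
Number of arrays (of 4 in each genotype) on which each probe was well above background, for the 4 members with several probes, ordered 5′ to 3′ by distance in kb from the most 3′ probe, with Tbx5-/+ in red and wild-type in blue. The probe at 0.0 kb is at 4 of 4 in both genotypes for Eya1, Eya3, Eya4 and Dach1, and the Dach1 probe at 44.5 kb is at 0 in both.

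Weighting or leaving out arrays moved the counts of all probes and of members, though not always together. Without Tbx5-/+ number 5, 2 member probes passed an unadjusted p of 0.05, against 20.7% of all probes (21.9% with all arrays). Without wild-type number 1, 0 member probes passed an adjusted p of 0.05, against 1.05% of all probes. With limma's array weights, which give less weight to arrays that fit the group means less well, 4 of the 10 member probes passed an adjusted p of 0.05 (Six4, Six5 and Eya2 lower, Dach1 higher), against 43.5% of all probes, and 5 passed an unadjusted p of 0.05, against 52.3%. Without Tbx5-/+ number 1, 1 member probe (Eya2) passed the adjusted threshold, against 19.2% of all probes, and 2 (Eya2 and Dach1) an unadjusted p of 0.05, against 41.8%. With the embryo number as a block, 0 passed the adjusted threshold, against 11.1% of all probes, and 1 (Six5) an unadjusted p of 0.05, against 34.9%.

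The mutant pools differed more among themselves than the wild-type pools. For the probes tested, the SD was larger in Tbx5-/+ for 7 of 10, against 76.2% of all probes, and its median was 0.631 in Tbx5-/+ and 0.354 in wild-type, against 0.428 and 0.258 over all probes. Number 1 and number 6 of Tbx5-/+ were most often at the ends. Tbx5-/+ number 1 was the highest of the 8 arrays for 5 of the 10 probes (Six2, Six4, both Eya1 probes and Eya2), which was so for 4.4% of all probes, and it was the lowest for 1 (Dach1), against 29.4%. Tbx5-/+ number 6 was the lowest for 5 (Six2, Six5, the upstream Eya1 probe, Eya2 and Eya3), against 38.2% of all probes, and the highest for 2 (the upstream Eya4 probe and Dach1), against 22% of all probes.

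Several marker sums stood apart on the same array. Summed over the markers tested, the neural tube signal was 11.97 in Tbx5-/+ number 1 (3 of 5 markers tested, Sox1 well above background on no array) and 9.25 to 10.44 on the other 7 arrays. The pSHF sum (10 of 10 tested) was 14.81 there, 16.76 to 17.35 in the other Tbx5-/+ pools and 16.03 to 16.40 in wild-type. The cardiomyocyte sum (6 of 6) was 17.99 in Tbx5-/+ number 1, 18.88 to 19.14 in the other Tbx5-/+ pools and 18.23 to 18.84 in wild-type. The intermediate mesoderm sum rested on Gata3 alone (1 of 4 tested) and was 12.05 in Tbx5-/+ number 1 and 10.21 to 11.40 elsewhere. Whether these tissues had a part in the high Six2, Six4, Eya1 and Eya2 values of that pool was not tested. In bulk tissue fewer cells of a type and less RNA per cell cannot be told apart.

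**Figure D4:**
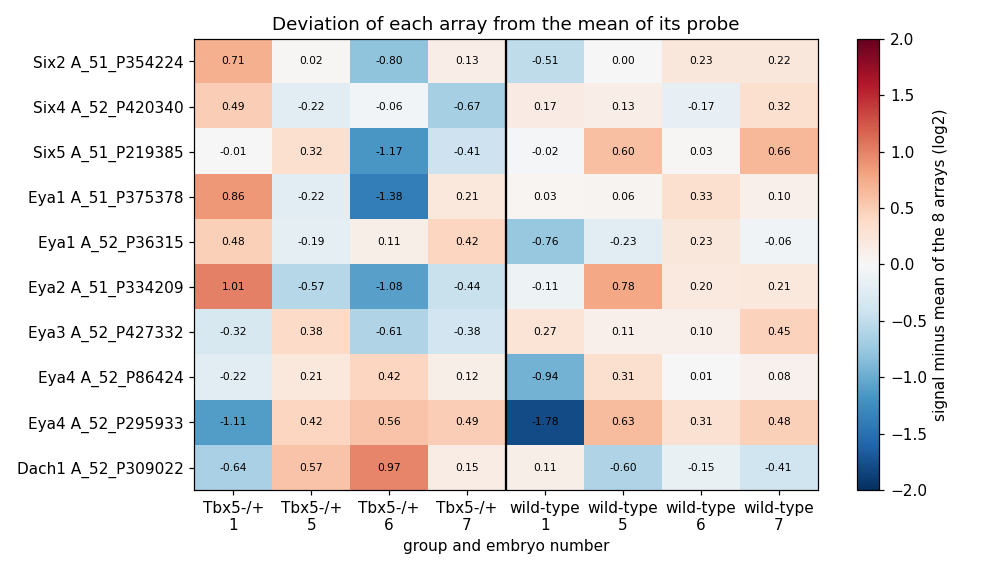
Signal of each array minus the mean of the 8 arrays (log2, colour and printed value) for the 10 probes tested, with Tbx5-/+ pools left of the line and wild-type pools right of it. Tbx5-/+ number 1 is high for Six2, Six4, Eya1 and Eya2 and low for Dach1 and Eya4, and wild-type number 1 is also low for Eya4.

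The tissue label was checked against marker lists. All 10 pSHF markers were tested, and 5 were lower in Tbx5-/+ at an unadjusted p under 0.05 by limma (Tbx5, Foxf1a, Hoxb1, Osr1 and Gata4), against 18.5% of all probes tested. The other 5 (Isl1, Foxf2, Aldh1a2, Wnt2 and Nr2f2) had differences above 0, from 0.02 to 0.55. Of the 10, 0 passed an adjusted p of 0.05. The targeted gene had a probe (A_52_P523712) with a mean of 9.13 ± 0.46 in Tbx5-/+ and 11.24 ± 0.55 in wild-type (SD, n = 4), a difference of -2.12 (limma adjusted p = 0.0920), and a second probe with a difference of -0.15. With the embryo number as a block the 5 lower pSHF markers passed by limma, with adjusted p of 0.0336 for Tbx5, Hoxb1, Osr1 and Gata4 and 0.0348 for Foxf1a, where 11.1% of all probes did. Among the endothelial markers 3 of 5 (Pecam1, Kdr and Tie1) were lower at an unadjusted p under 0.05 by limma, against 18.5% of all probes tested. Tek was at -0.42 and Cdh5 went the other way, at 0.14. By limma 0 passed an adjusted p of 0.05 and 1 (Kdr, adjusted p = 0.0347) did with the block. The endothelial sum was 12.43 to 12.79 in Tbx5-/+ and 13.03 to 13.29 in wild-type, without overlap, as in 9.72% of single probes. Its part in the member values was not tested. The sums of the pharyngeal mesoderm (5 of 5 tested), somite (3 of 6), neural crest (1 of 5), foregut endoderm (6 of 6) and intermediate mesoderm (1 of 4) markers overlapped between genotypes. So did those of the pSHF, neural tube and cardiomyocyte markers. Of the pharyngeal mesoderm markers 2 were lower and 3 higher, and 1 (Lhx2, -1.34) had a limma unadjusted p under 0.05. By limma its adjusted p was 0.0965, and 0.0363 with the block. Myf5 of the somite list was well above background on no array.

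Other genes of the network were taken from lists by role. Of 34 such genes, all on the array, 23 were tested by their brightest probe, 9 lower and 14 higher with a median difference of 0.05. At an unadjusted p under 0.05 by limma, 3 of the 23 were lower and 1 was higher, against 18.5% and 3.38% of all probes tested, and 0 passed an adjusted p of 0.05. The lower ones were Ncor1 (-1.42, adjusted p = 0.136), the nuclear receptor corepressor, Hdac3 (-0.92, adjusted p = 0.214), the deacetylase of that complex, and Ezr (-0.86, adjusted p = 0.182), which encodes ezrin of the cell cortex. The higher one was Fgf8 (1.54, adjusted p = 0.209), a growth factor of the pharyngeal arches.

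With the embryo number as a block, where 11.1% of all probes passed an adjusted p of 0.05, Ncor1 (0.0364), Fgf8 (0.0336) and Ezr (0.0431) passed by limma and 0 of the member probes did. Dach2, the paralog of Dach1, was at -0.81 (adjusted p = 0.360), while Six3 and Six6 were well above background on no array. Among the Pax genes Pax1, Pax6 and Pax9 were tested and Pax2, Pax3, Pax7 and Pax8 were not, being well above background on 1 or 2 arrays at most.

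For the brightest tested probe of each member, the most similar profiles over the 8 arrays were sought among tested probes with at least 50% of its SD, by the root mean square (RMS) distance after centring each probe on its mean. The nearest was Prrx1 for Six2 (0.218), Jhdm1d for Six4 (0.110), Phka2 for Six5 (0.0750), 3110082D06Rik for Eya1 (0.181), Bgn for Eya2 (0.215), Pml for Eya3 (0.0865), Insc for Eya4 (0.197) and Psip1 for Dach1 (0.114). Median distances of the candidates were 0.480 (for Eya3) to 1.14 (for Eya4). Tcfap2c was the next nearest to Six2 at 0.218. All profiles share the same 8 arrays and their overall differences in signal.

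Promoter windows from RefSeq (GRCm38.p6, 250 bases before to 50 after the start) matched 6 of the 8 members, with 8 windows. The T-box core AGGTGTG was in 0 of the 8 on either strand and in 5.84% of all 32851 windows, and the Gli core CCACCCA was in 0 and 9.30%. The MEF3 core AGGTTTC, of the site that SIX-family proteins bind, was in 1, a window of Six4, against 4.64% of all windows. These are letter matches in short windows and not sites of binding.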

How the data were processed

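RNA of 4 Tbx5-/+ and 4 wild-type pSHF pools was labelled with Cy3 and hybridized to Agilent whole mouse genome arrays with 60-base probes, 1 pool an array, annotated on mm9. Per the file headers, the deposited scanner output (Agilent Feature Extraction 10.5.1.1) gives linear intensity for each spot. The authors also deposited a table of log2 values, background-corrected and normalized by VSN, for 22405 probes.

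Background-subtracted mean signals (1115 outlier spots left out, 0 of them of members, and 245 probes with repeated spots averaged) were stabilized with VSN, programmed in Python 3.11.15 with numpy 2.4.6 (90% of probes kept, 7 iterations). Pearson's r with the deposited values was at least 0.9999 across probes on each array. Groups were compared with limma 3.58.1 in R 4.3.3 (lmFit and eBayes, two-sided, no covariate), with Benjamini-Hochberg adjustment over 20028 probes and a threshold of 0.05. The samr statistic named in the study's methods was replaced by limma, with a plain two-class unpaired t statistic as an alternative. On simulated data of 20021 probes for this comparison, limma recovered 0 of 200 probes changed by 1 on the log2 scale, 170 of 200 changed by 2 and 192 of 200 changed by 3. The number of arrays and the spread between them limit the precision.

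The deviations of same-numbered pools of the 2 genotypes from their group means had correlations across probes of 0.438, 0.400, 0.593 and 0.137 for numbers 1, 5, 6 and 7. Tbx5-/+ numbers 1, 5 and 6 correlated most with the same number of wild-type, but number 7 correlated most with wild-type number 6. The labels do not say that the numbers pair the samples. The main fit was unpaired, and a fit with the numbers as a block was an alternative. The others were scalings, filters on dim probes, the slide as a block, array weights, a trended and robust fit, and leaving out arrays. The rule named all 8 members with every probe, network genes at an unadjusted p under 0.05 and the 2 nearest profiles of each member; Six3, Six6, Dach2 and the Pax genes were named besides it as relatives or partners, and 1 gene of the network lists is not reported here by name. The members and lists were chosen with earlier results of these data known. Each list gene was represented by its brightest probe tested. Exons and UTRs were not assigned, since no annotation of mm9 was used.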

Additional observations from a re-analysis of the deposited data

Results flagged for a closer look

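The Eya4 probe A_52_P295933 had a pool far from the other 3 in each genotype. Number 1 read 8.31 in Tbx5-/+, with the nearest of the other pools at 9.84, a gap of 0.915 of the group's range. Number 1 of wild-type read 7.64, with the nearest at 9.73, a gap of 0.868 of the range. Over 30 sets of 4 pools examined (15 probes in 2 genotypes), these were the only 2 that stood out, and chance alone marks about 1 set in 20. The cause was not tested.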

How the results depend on the processing

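Over the 10 member probes, 189 values under an alternative kept their direction and their side of the threshold, 7 passed the threshold and 10 turned direction. The number of all probes at an adjusted p of 0.05 went from 0 to 2218 with the replicate block, 8719 with array weights and 3158 without both pools of number 1 (chosen after the data were seen), and from 0 to 3844 when 1 pool was left out, the highest without Tbx5-/+ number 1 (211 without wild-type number 1, 0 without any other). Member probes at that threshold were 0 with the replicate block (where 11.1% of all probes passed), 4 with array weights (Six4 0.0142, Six5 0.0202, Eya2 0.0138 and Dach1 0.0143, where 43.5% of all probes passed), 2 without number 1 (Eya2 0.0316, Dach1 0.0428, where 15.8% passed) and 0 to 1 without 1 pool (where 0% to 19.2% passed). At an unadjusted p under 0.05 they were 1 with 75th percentile scaling (24.2% of all probes), 2 with centring (22.9%), 1 with no filter on dim probes (12.0%), 1 with the replicate block (34.9%), 5 with array weights (52.3%) and 2 without number 1 (39.9%). Without 1 pool they were 0 to 2 (11.1% to 41.8%), reaching 2 without Tbx5-/+ number 1 (41.8%) and without Tbx5-/+ number 5 (20.7%).

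Signs turned for Six2 (-0.063 with array weights, -0.37 without number 1, -0.20 to 0.30 without 1 pool), Six4 (0.094 with centring) and the upstream Eya1 probe (0.062 with centring, -0.59 to 0.16 without 1 pool). Without 1 pool the Eya4 probes ran from -0.38 to 0.58 (A_52_P295933) and from -0.00035 to 0.42 (A_52_P86424), each lowest without wild-type number 1. The gap between the Eya1 probes ran from 0.29 to 0.91 and that between the Eya4 probes from -0.38 to 0.20, the latter 0.32 with 75th percentile scaling and 0.13 with quantile normalization. The cause was not tested. The size of a difference was not read from a probe that was well above background in none of the pools of a group. With all 8 arrays, simulated differences of 1 on the log2 scale were not detected.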
